A study of Mus musculus with 6 samples.

Results

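The genes described here are the cyclins and inhibitors that set the pace of the G1 phase: the D cyclins Ccnd1, Ccnd2 and Ccnd3, the E cyclins Ccne1 and Ccne2, the CIP/KIP inhibitors Cdkn1a (p21) and Cdkn1b (p27), and the INK4 inhibitors Cdkn2a, Cdkn2b (p15) and Cdkn2c (p18). They were chosen by name, as rows of the deposited table that carry 1 of these 10 symbols, and 9 rows of the 31097 in the table did so. Cdkn2c was not analysed here. RNA was sequenced from 3 libraries of SWELL1 KO 3T3-F442A cells and 3 libraries of WT 3T3-F442A cells. The line is a mouse preadipocyte line of 3T3 origin, grown in RPMI with 10% FBS, and the KO cells derive from it by CRISPR/Cas9 targeting of SWELL1 (Lrrc8a), which codes for part of an anion channel that opens when cells swell. Nothing in the labels says whether the KO libraries share 1 clone, what D3 stands for in the names of the KO samples, or whether cells were differentiated, so the genotype cannot be told apart from a difference between clones or from that mark. Levels are in FPKM, fragments scaled by transcript length and library depth, which can be compared between genes because they are per length. The unit is an inference, since Cufflinks made the table and nothing names it.

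Cells in G1 are driven towards S phase by D cyclins, which bind CDK4 and CDK6, and then by E cyclins, which bind CDK2. These kinases phosphorylate the retinoblastoma family and so release E2F factors, which switch on the genes of DNA synthesis. INK4 proteins block CDK4 and CDK6, while CIP/KIP proteins bind cyclin-CDK2 complexes and can also help D cyclins assemble with their kinases. The Cdkn2a gene codes for p16Ink4a, an inhibitor of CDK4 and CDK6, and for p19Arf, which acts on the p53 pathway. Its locus is commonly lost or silenced when mouse fibroblasts become immortal, unless p53 is lost instead. In preadipocytes, D cyclins, Cdkn1a and Cdkn1b are known to shift as cells pass from growth into differentiation.

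Cdkn2a and Cdkn2b lie side by side on mouse chromosome 4 (GRCm38), both on the minus strand. Cdkn2a spans chr4:89274471-89294653 and Cdkn2b spans chr4:89306299-89311039, with 11645 bases between them. The annotation (GENCODE M21) gives Cdkn2a 2 transcripts whose starts lie 12461 bases apart. They share 575 bases, 67.5% of the shorter one of 852 bases and 64.2% of the longer one of 895 bases, and the deposited table holds 1 row for the gene. The values for Cdkn2a below therefore do not separate p16Ink4a from p19Arf. The upstream sequences of both starts, of Cdkn2b and of Ccne1 are shown because the first of these genes is the most abundant member, the second is its neighbour, and Ccne1 is the member with no library at 0 that differed most. Each is the stretch from 250 to 51 bases before the RefSeq start (GRCm38.p6), 5′ to 3′ on the gene's strand. Capitals mark matches on either strand to an E2F motif (TTTCGCGC, TTTGGCGC, TTTGCCGC or TTTCCCGC) or to a GC box (GGGCGG).
Cdkn2a, upstream start, chr4:89294670-89294869, minus strand: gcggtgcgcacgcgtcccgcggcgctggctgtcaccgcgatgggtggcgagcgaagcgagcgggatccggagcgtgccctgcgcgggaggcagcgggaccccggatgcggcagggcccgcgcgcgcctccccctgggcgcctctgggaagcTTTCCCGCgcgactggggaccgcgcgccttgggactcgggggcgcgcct
Cdkn2a, downstream start, chr4:89282243-89282442, minus strand: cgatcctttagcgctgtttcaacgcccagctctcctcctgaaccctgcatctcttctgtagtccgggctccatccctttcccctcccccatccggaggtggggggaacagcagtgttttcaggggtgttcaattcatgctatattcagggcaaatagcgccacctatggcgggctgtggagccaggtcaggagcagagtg
Cdkn2b, chr4:89311083-89311282, minus strand: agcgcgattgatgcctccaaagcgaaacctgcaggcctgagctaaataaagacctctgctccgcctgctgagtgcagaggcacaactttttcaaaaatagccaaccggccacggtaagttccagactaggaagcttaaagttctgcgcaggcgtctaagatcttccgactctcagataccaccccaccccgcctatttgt
Ccne1, chr7:38107541-38107740, minus strand: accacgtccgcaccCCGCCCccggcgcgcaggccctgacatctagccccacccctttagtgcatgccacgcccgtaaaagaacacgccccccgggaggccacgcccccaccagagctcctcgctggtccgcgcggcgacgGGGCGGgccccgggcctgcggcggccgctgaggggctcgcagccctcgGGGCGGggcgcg

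The upstream Cdkn2a window holds 1 E2F match and the Ccne1 window holds 3 GC boxes, while the windows of the downstream Cdkn2a start and of Cdkn2b hold neither motif. Over all 32851 RefSeq promoter windows of the same 200 bases, 1.46% hold at least 1 E2F match and 24.6% at least 1 GC box. The windows also differ in base composition: G and C make up 79% of the upstream and 57.5% of the downstream Cdkn2a window, 52% of that of Cdkn2b and 78% of that of Ccne1. Among the windows not printed, 1 each of Ccnd3, Cdkn1a, Cdkn1b and Cdkn2c held 1 GC box. These matches describe letters in the windows, and 7 of the 10 members had a promoter in the RefSeq table.

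Facts of the whole series bear on every value below. Depth, estimated from the worth of 1 fragment in long genes with a single transcript, was 18.4 to 26.0 M fragments in KO libraries and 17.2 to 20.8 M in WT libraries. The targeted gene shares its row with Nup188 and Phyhd1, and that row differed by a log2 fold change of -0.26 (limma adjusted p = 0.00322), so it does not check the knockout. A numbered clone, AC166252.2, took 16.7% to 23.7% of the FPKM sum in KO libraries and 0% to 2.1% in WT libraries. Of the fibroblast and preadipocyte markers, 7 of 8 exceeded 1 FPKM, with summed levels of 5224 to 5300.4 FPKM in KO and 5322 to 6103 FPKM in WT. The sums hide a split, since all 7 tested markers differed (limma adjusted p under 0.05). Of these, 4 were lower in KO: Thy1 (mean 144 FPKM in KO, 289 in WT), Dlk1 (717 and 1236), Pdgfra (142 and 215) and Col1a1 (636 and 973). The other 3, Pdgfrb, Col3a1 and Vim, were higher in KO. Of 8 mature adipocyte markers 7 had a row, and their sum was 2.71 to 4.63 FPKM in KO and 137 to 196 FPKM in WT, nearly all of it Fabp4. The other 6, Adipoq, Pparg, Plin1, Cidec, Cfd and Lep, were each at or under 2.49 FPKM in every library, and Lep was listed at 0 in all of them. The 4 that were tested, Fabp4, Adipoq, Pparg and Plin1, were all lower in KO (limma adjusted p = 1.09e-05, 0.000108, 0.00136 and 0.00263). Adipoq was at 0.0443, 0 and 0 FPKM in KO and at 1.87, 1.55 and 1.26 FPKM in WT. The sums of leukocyte, endothelial, epithelial and skeletal muscle markers were each at most 1.64 FPKM in any library.

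Of the 9 members with a row, 8 passed the test for KO against WT (limma, Benjamini-Hochberg adjusted p under 0.05 over the 10515 rows averaging 0.5 FPKM or more). The background is high: 65.2% of all tested rows passed, 28.5% as higher and 36.7% as lower in KO. The members split evenly, with 4 higher (Ccnd1, Cdkn1a, Cdkn2a and Cdkn2b) and 4 lower (Ccnd2, Ccne1, Ccne2 and Cdkn1b). Cyclins and inhibitors did not move as blocks: 1 cyclin rose and 3 fell, and 3 inhibitors rose and 1 fell, with the Cdkn2a row counted as an inhibitor. The groups did not overlap for 8 of the 9 members, against 71.8% of all tested rows. The median log2 fold change was -0.47 over the members and -0.07 over all tested rows. The members' median is the value of Ccnd3, which did not pass, and was -0.26 under quantile normalization. It therefore does not show a shift of the members as a set. Changes in bulk RNA do not tell apart fewer cells in a phase of the cycle from less RNA per cell. The labels call the replicates biological without naming separate cultures, so p-values reflect only how much these libraries vary.

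**Figure D1:**
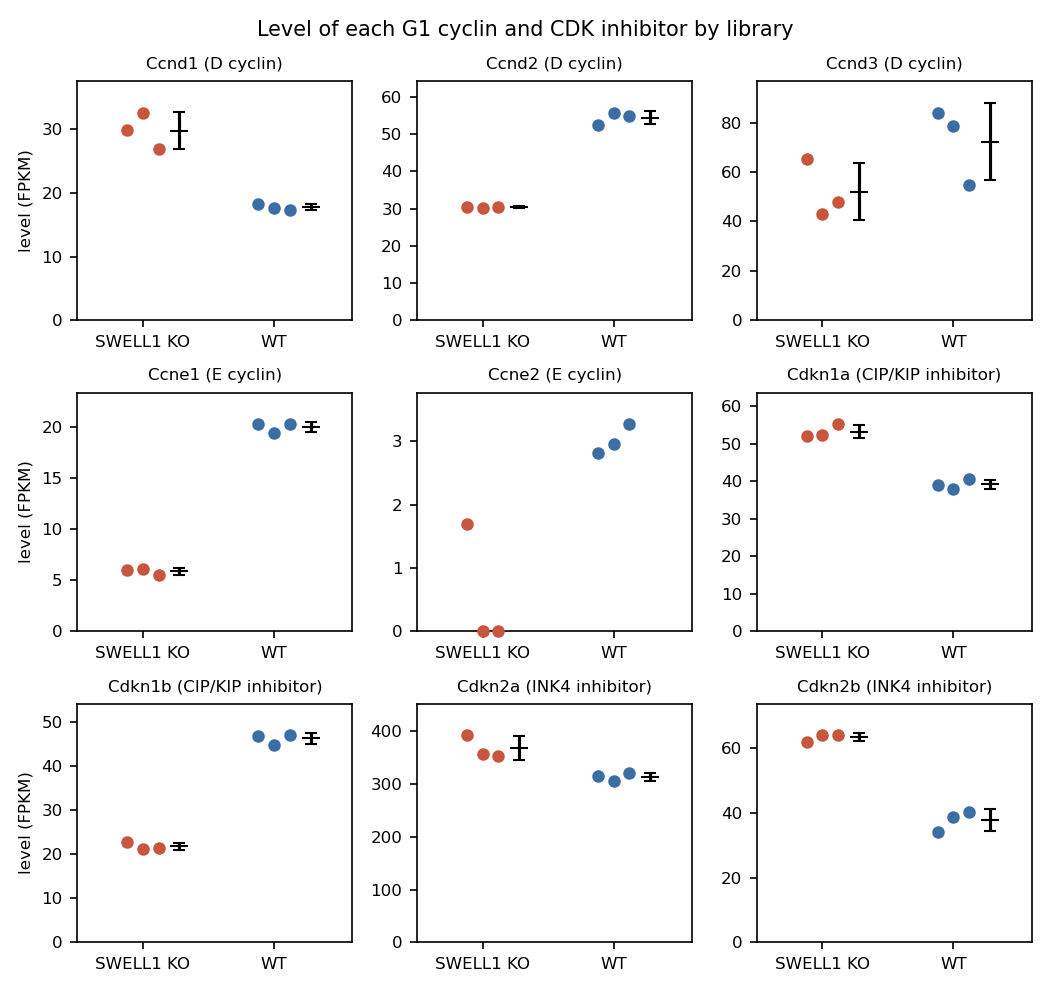
Level of each member in FPKM (y axis, from 0, scaled per panel) in the 3 SWELL1 KO libraries (red) and the 3 WT libraries (blue), with the mean and SD in black except for Ccne2, which has libraries at 0. KO points lie above all WT points for Ccnd1, Cdkn1a, Cdkn2a and Cdkn2b, below them for Ccnd2, Ccne1, Ccne2 and Cdkn1b. For Ccnd3 the groups overlap, with KO replicate 1 above WT replicate 3 and KO replicates 2 and 3 below all WT points.

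The D cyclins, which link growth factor signals to the cell cycle, changed in opposite directions. Ccnd1 (cyclin D1, chr7:144929931-144939925) was at 29.8, 32.6 and 26.9 FPKM in KO replicates 1, 2 and 3 and at 18.2, 17.6 and 17.4 FPKM in WT replicates 1, 2 and 3. All KO libraries lay above all WT libraries, and the means of 29.8 ± 2.85 and 17.7 ± 0.45 FPKM (SD, n = 3 each) differed 1.68-fold, with a log2 fold change of 0.73 (SE 0.08, limma adjusted p = 0.000352). Ccnd2 (cyclin D2, chr6:127125162-127152193) went the other way. It was at 30.4, 30.1 and 30.5 FPKM in KO and at 52.4, 55.7 and 54.8 FPKM in WT, with little spread inside either group. It was 1.79-fold lower in KO, a log2 fold change of -0.83 (SE 0.04, limma adjusted p = 1.63e-05). Ccnd3 (cyclin D3, chr17:47505051-47599691), the D cyclin with the highest mean level in both groups, was at 65.2, 43.1 and 48.0 FPKM in KO and at 84.0, 78.4 and 54.6 FPKM in WT. Its groups overlapped, since KO replicate 1 exceeded WT replicate 3, and it did not pass (log2 fold change -0.47, 95% interval -1.01 to 0.07, limma adjusted p = 0.108). It passed in the fits without KO replicate 1 (limma adjusted p = 0.0473) and without WT replicate 3 (limma adjusted p = 0.0343).

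Within each library the balance of the D cyclins can be read without regard to scaling between libraries. Ccnd1 stood at 0.979, 1.08 and 0.882 times the level of Ccnd2 in KO replicates 1, 2 and 3, against 0.348, 0.317 and 0.316 times in WT replicates 1, 2 and 3. Cyclin D1 RNA was thus about level with cyclin D2 RNA in KO cells and well below it in WT cells. As shares of the 3 genes' summed FPKM, Ccnd1 made up 23.8% to 30.8% in KO and 11.6% to 13.7% in WT, Ccnd2 24.3% to 28.9% in KO and 33.9% to 43.3% in WT, and Ccnd3 40.8% to 52.0% in KO and 43.1% to 54.3% in WT. The shares of Ccnd1 and of Ccnd2 did not overlap between groups, while those of Ccnd3 did. The sum itself was 105 to 125 FPKM in KO and 127 to 155 FPKM in WT.

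**Figure D2:**
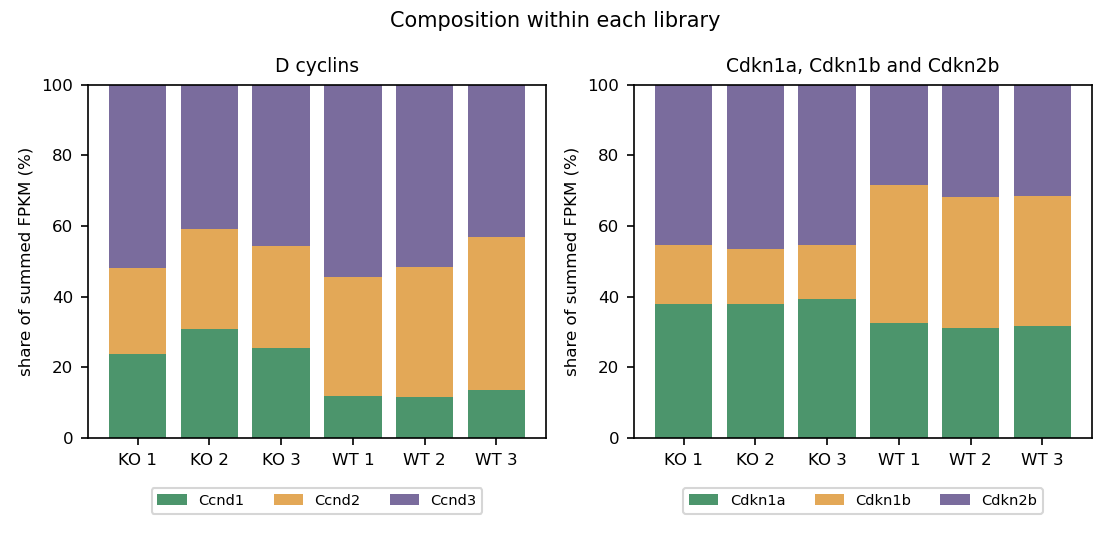
Share of summed FPKM in each library (y axis, %, from 0 to 100) held by the 3 D cyclins (left) and by Cdkn1a, Cdkn1b and Cdkn2b (right), KO libraries first. Ccnd1 holds 23.8% to 30.8% in KO and 11.6% to 13.7% in WT, and Cdkn1b holds 15.2% to 16.7% in KO and 36.8% to 39.1% in WT.

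The E cyclins, the partners of CDK2 at the start of S phase, were both lower in KO cells. Ccne1 (cyclin E1, chr7:38097984-38107534), whose upstream window with 3 GC boxes is printed above, was at 6.02, 6.09 and 5.50 FPKM in KO and at 20.3, 19.4 and 20.4 FPKM in WT. The gap between the groups was many times the spread inside them. The means of 5.87 ± 0.32 FPKM in KO and 20.0 ± 0.51 FPKM in WT (SD, n = 3 each) differed 3.41-fold, a log2 fold change of -1.69 (SE 0.05, limma adjusted p = 6.11e-06), the largest among members with no library at 0. Ccne2 (cyclin E2, chr4:11191351-11204779), at a lower level throughout, stood at 1.69 FPKM in KO replicate 1 and was listed at 0 in KO replicates 2 and 3, against 2.81, 2.95 and 3.27 FPKM in WT. Every KO library lay below every WT library, and the row passed the test (limma adjusted p = 0.023). A listed 0 need not mean that RNA was absent. Of 8117 rows with 5 FPKM or more somewhere, 259 had both zeros and values above 0 within 1 genotype. Ccne2 stayed under 5 FPKM, so that count does not cover it, and its zeros remain weak evidence. The call was lost in 5 of the 6 fits that left out a library: without KO replicate 2 (limma adjusted p = 0.0705), KO replicate 3 (0.0706), WT replicate 1 (0.0599), WT replicate 2 (0.0611) or WT replicate 3 (0.0675).

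The CIP/KIP inhibitors changed in opposite directions. Cdkn1a (p21, a p53 target and inhibitor of cyclin-CDK2, chr17:29090976-29100727) was at 52.0, 52.5 and 55.4 FPKM in KO and at 39.1, 38.0 and 40.6 FPKM in WT. All KO libraries were higher, by 1.36-fold on the means (log2 fold change 0.44, SE 0.04, limma adjusted p = 0.000305). Cdkn1b (p27, the inhibitor that accumulates in resting cells, chr6:134920401-134925513) was at 22.8, 21.3 and 21.4 FPKM in KO and at 46.9, 44.9 and 47.2 FPKM in WT. It was 2.12-fold lower in KO, a log2 fold change of -1.07 (SE 0.04, limma adjusted p = 1.26e-05). The ratio of Cdkn1a to Cdkn1b was 2.28, 2.47 and 2.59 in KO replicates 1, 2 and 3 and 0.833, 0.847 and 0.860 in WT replicates 1, 2 and 3. Cdkn1a RNA therefore exceeded Cdkn1b RNA in each KO library and stood below it in each WT library.

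The neighbouring INK4 genes Cdkn2a and Cdkn2b were both higher in KO cells. Cdkn2a was at 394, 358 and 354 FPKM in KO and at 316, 306 and 321 FPKM in WT. It was the member with the highest level in each of the 6 libraries, ranking 166th of 15798 rows with a mean above 0 in KO and 205th of 14468 in WT. This immortal line thus carried abundant RNA read as Cdkn2a in both genotypes; the row tells nothing of protein, of mutations, or of which of its transcripts was read. The means of 369 ± 22.1 FPKM in KO and 314 ± 7.55 FPKM in WT (SD, n = 3 each) differed 1.17-fold (log2 fold change 0.23, SE 0.05, limma adjusted p = 0.0088), the smallest change among the called members. Cdkn2b (p15, which is induced by TGF-beta in many cells) was at 62.0, 64.1 and 64.0 FPKM in KO and at 34.0, 38.9 and 40.4 FPKM in WT. Its KO libraries were tightly grouped above all WT libraries, 1.68-fold higher on the means (log2 fold change 0.74, SE 0.07, limma adjusted p = 0.000229). The neighbours did not change by equal factors: Cdkn2a stood at 6.36, 5.58 and 5.53 times Cdkn2b in KO and at 9.29, 7.88 and 7.94 times in WT.

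**Figure D3:**
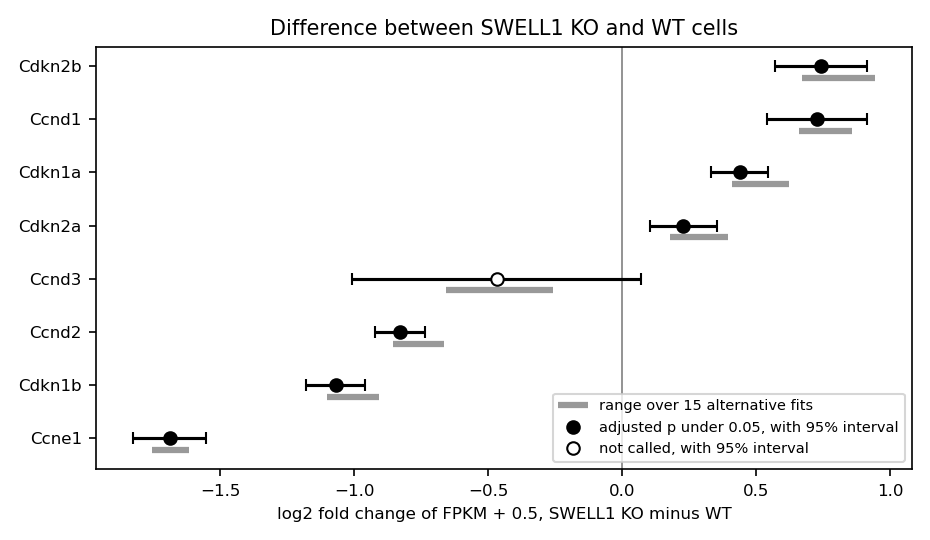
Log2 fold change of FPKM + 0.5, SWELL1 KO minus WT (x axis), for the 8 members with no library at 0. Black bars are 95% intervals from limma, filled points have an adjusted p under 0.05, and grey bars give the range over 15 alternative fits. Cdkn2b, Ccnd1, Cdkn1a and Cdkn2a lie right of 0, Ccnd2, Cdkn1b and Ccne1 left of it, and the interval of Ccnd3 crosses 0.

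Ordered by mean level in KO cells, the members ran Cdkn2a, Cdkn2b, Cdkn1a, Ccnd3, Ccnd2, Ccnd1, Cdkn1b, Ccne1 and Ccne2. Of the neighbours in that order, Cdkn1a and Ccnd3 overlapped in range, as did Ccnd2 and Ccnd1. In WT cells the order was Cdkn2a, Ccnd3, Ccnd2, Cdkn1b, Cdkn1a, Cdkn2b, Ccne1, Ccnd1 and Ccne2, with overlaps between Ccnd3 and Ccnd2 and between Cdkn1a and Cdkn2b. Cdkn1b was thus the lowest of the 4 inhibitors among the members in KO cells and the second highest in WT cells. These ranks depend on the list of members. Cdkn2d, the remaining INK4 gene described further on, had a lower mean than Cdkn1b in KO (10.4 against 21.8 FPKM). In WT its mean was higher (51.9 against 46.3 FPKM), with overlapping ranges. Taken with Cdkn2a, the 4 inhibitors among the members summed to 495 to 531 FPKM in KO and 428 to 449 FPKM in WT, of which Cdkn2a made up 71.5% to 74.2% in KO and 71.4% to 72.5% in WT. The Cdkn2a row does not separate p16Ink4a from p19Arf, so how much of these sums codes for CDK inhibitors is not known. Without Cdkn2a the sum was 137 to 141 FPKM in KO and 120 to 128 FPKM in WT. The direction of that sum turned when Cdkn2d was added: 147 to 152 FPKM in KO and 168 to 182 FPKM in WT. With Cdkn2d and Cdkn2a both counted, Cdkn2a made up 69.9% to 72.7% in KO and 63.8% to 64.6% in WT. Of the sum of Cdkn1a, Cdkn1b and Cdkn2b alone, Cdkn1a held 38.0% to 39.4% in KO and 31.2% to 32.6% in WT, Cdkn1b 15.2% to 16.7% in KO and 36.8% to 39.1% in WT, and Cdkn2b 45.3% to 46.5% in KO and 28.4% to 31.9% in WT. None of these 3 shares overlapped between groups.

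Other genes overlap some of the members' exons in the annotation, and no source used here says if the libraries were stranded. The share of exonic bases that also belong to another gene was 23.4% for Ccnd1 (LTO1), 17.4% for Ccne2 (Ints8), 7.9% for Ccnd2 (Gm43126 and 9330179D12Rik), 7.7% for Cdkn1a (AC167363.2) and 4.1% for Ccnd3 (Bysl). The exons of Ccne1, Cdkn1b, Cdkn2a and Cdkn2b overlapped no other annotated gene.

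Over the 6 libraries, the rows naming a single gene whose log2 level ran most like that of Ccne1 were Clk3, Gm2574 and Tpra1, each with a Pearson r of 1.00 when rounded. Clk3, a kinase of splicing factors, was at 20.3 ± 0.77 FPKM in KO and 49.3 ± 0.92 FPKM in WT (SD, n = 3 each). This likeness mostly restates the difference between genotypes, which all 6 points share, and 923 tested rows had an r above 0.99 with Ccne1.

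Around the members, 61 of 73 other genes of the G1 to S transition had a row and 56 were tested. Of these 16 rose and 21 fell in KO, 66.1% against 65.2% of all tested rows, so the list as a whole was called about as often as the table. With median-ratio scaling 16 rose and 15 fell (31 of 56, against 6826 of all 10515 rows), and with quantile normalization 16 rose and 17 fell (33 of 56, against 6806 of 10515), so the excess of lower genes was not kept under median-ratio scaling and was 1 gene under quantile normalization. The genes without a row, among them Cdk2, Cdk4, Rb1, E2f1 and Myc, were not analysed here. The family's remaining INK4 gene held the largest change among called genes of these lists: Cdkn2d (p19Ink4d, chr9:21288410-21291407) was at 11.0, 8.88 and 11.4 FPKM in KO and at 55.9, 45.8 and 54.2 FPKM in WT. It was 4.98-fold lower in KO (log2 fold change -2.26, SE 0.12, limma adjusted p = 2.78e-05), opposite in direction to Cdkn2a and Cdkn2b. Cdkn1c (p57), the third CIP/KIP gene, was near the floor at 0.0864, 0 and 0.0301 FPKM in KO and was listed at 0 in all 3 WT libraries.

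The retinoblastoma relatives, which bind E2F factors, split. Rbl1 (p107), itself a gene of proliferating cells, fell to 2.80 ± 0.22 FPKM in KO, against 6.30 ± 0.40 FPKM in WT (limma adjusted p = 9.97e-05). Rbl2 (p130), the form that prevails in resting cells, rose to 10.4 ± 1.00 FPKM in KO, against 6.13 ± 0.68 FPKM in WT (limma adjusted p = 0.00142). Of 7 tested E2F and DP genes 1 rose, 2 fell and 4 were not called, 42.9% called against 65.2% of all tested rows. E2f6, a repressor, was 1.51-fold lower in KO (limma adjusted p = 0.00362), and Tfdp1, a partner of E2F factors, was 1.19-fold lower (limma adjusted p = 0.0109, and 0.356 under quantile normalization). E2f5 was at 10.4 ± 1.68 FPKM in KO and 7.51 ± 0.96 FPKM in WT (limma adjusted p = 0.0392), a call kept in 8 of 15 alternative fits. It was lost without KO replicate 2 or 3 or WT replicate 1, 2 or 3 (limma adjusted p from 0.0534 to 0.115) and when low rows were not filtered out (0.0603). Here and below, values are means ± SD with n = 3 in each group.

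Of 6 tested G1 and S kinases and activators, 2 rose, 2 fell and 2 were not called. The share called was 66.7%, against 65.2% of all tested rows. Cdk6, a partner of the D cyclins, was at 3.30 ± 0.17 FPKM in KO and 2.40 ± 0.10 FPKM in WT (limma adjusted p = 0.0037), and Cdc25a, the phosphatase that activates CDK2, was at 3.76 ± 0.20 FPKM in KO and 5.42 ± 0.62 FPKM in WT (limma adjusted p = 0.005). Ccnh and Mnat1, which form the CDK-activating kinase with CDK7, gave less stable calls. Ccnh was 1.31-fold higher in KO (limma adjusted p = 0.0416, lost without KO replicate 1 or 2 or WT replicate 2 or 3, from 0.0806 to 0.119, and with no filter on low values, at 0.0617). Mnat1 was 1.26-fold lower in KO (limma adjusted p = 0.0316, lost without KO replicate 1 or 2 or WT replicate 3, from 0.053 to 0.0814, and under both scalings, at 0.067 and 0.154).

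**Figure D4:**
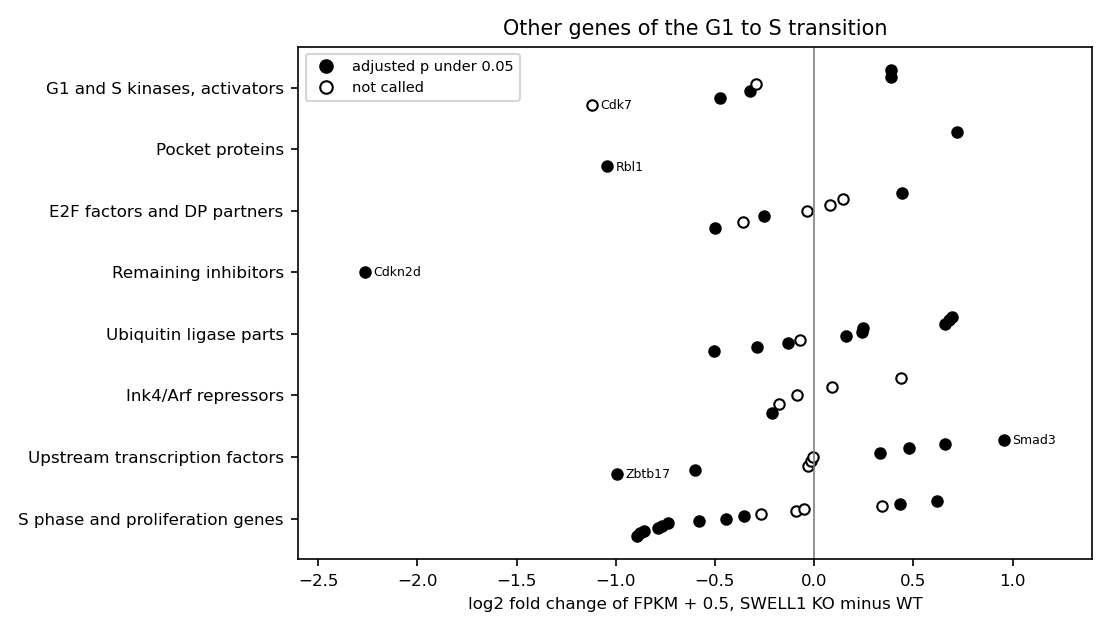
Log2 fold change of FPKM + 0.5, SWELL1 KO minus WT (x axis), for each tested gene of 8 lists around the members, leaving out Tk1, which has a library at 0. Filled points have an adjusted p under 0.05, and Cdkn2d, Rbl1 and Zbtb17 stand furthest left among them and Smad3 furthest right.

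Ubiquitin ligase parts, which mark cyclins and CIP/KIP proteins for destruction, rose in 6 and fell in 3 of 10 tested cases. The share called was 90%, against 65.2% of all tested rows. Over all tested rows 28.5% were higher and 36.7% lower in KO. Fbxw7, the receptor for cyclin E, rose to 3.59 ± 0.41 FPKM in KO, against 2.03 ± 0.24 FPKM in WT (limma adjusted p = 0.00245). Skp1a, the linker of SCF ligases, was 1.61-fold higher (limma adjusted p = 2.77e-05), and Rnf123, a ligase for p27, was 1.64-fold higher (limma adjusted p = 0.00177). Dtl, which directs p21 to destruction in S phase, was 1.47-fold lower in KO (limma adjusted p = 5e-04). Skp2, Cul3, Cul4a and Ambra1, named after their values were seen, gave less stable calls. Ambra1 kept its call in 4 of 15 alternative fits and lost it without each of the 6 libraries in turn (limma adjusted p from 0.0609 to 0.135) and under both scalings (0.237 and 0.143). Skp2 kept its call in 9 of 15, losing it without KO replicate 1 or 3 or WT replicate 2 or 3 (limma adjusted p from 0.0561 to 0.0876), under median-ratio scaling (0.0691) and with no filter (0.0522). Cul3 kept its call in 11 of 15, losing it without KO replicate 1 or 3 or WT replicate 1 or 2 (limma adjusted p up to 0.0603), and Cul4a in 14 of 15, losing it without KO replicate 2 (0.0531). Of 5 tested Polycomb and T-box genes that repress the Ink4/Arf locus only Ezh2 was called, 20% against 65.2% of all tested rows. Ezh2 was at 17.3 ± 0.44 FPKM in KO and 20.1 ± 0.93 FPKM in WT (limma adjusted p = 0.0109). That call was lost under median-ratio scaling (0.0529) and quantile normalization (0.166). Cbx7, another Polycomb gene of that list, was listed at 0 in all 6 libraries.

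Among transcription factors upstream of these genes 4 rose, 2 fell and 3 were not called, 66.7% called against 65.2% of all tested rows. Smad3, which carries TGF-beta signals, stood at 15.7, 15.2 and 14.1 FPKM in KO and at 8.11, 7.11 and 7.30 FPKM in WT, 2.00-fold higher on the means (limma adjusted p = 8.69e-05). Zbtb17 (Miz1), a regulator of Cdkn1a and Cdkn2b, was at 3.69, 4.04 and 3.61 FPKM in KO and at 8.08, 8.09 and 7.84 FPKM in WT, 2.12-fold lower (limma adjusted p = 4.07e-05). Foxo3, an activator of Cdkn1b, was 1.61-fold higher in KO (limma adjusted p = 9.86e-05). Foxo1, named after its values were seen, was 1.48-fold higher (limma adjusted p = 0.00169). Foxo4 was lower, so the Foxo genes did not move together, and their part in the lower level of Cdkn1b was not tested. Foxo4 was at 13.5, 13.7 and 13.7 FPKM in KO and at 28.7, 18.3 and 17.5 FPKM in WT (limma adjusted p = 0.0329), a call lost without KO replicate 1, 2 or 3 (from 0.0802 to 0.0838) under both scalings (0.0527 and 0.0664) and with no filter on low values (0.0508). Trp53, singled out after its values were seen because it lies between p19Arf and Cdkn1a, was at 55.1 ± 3.81 FPKM in KO and 43.7 ± 3.02 FPKM in WT (limma adjusted p = 0.00835).

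Genes of S phase and proliferation fell in 9 and rose in 2 of 16 tested cases, 68.8% called against 65.2% of all tested rows, with the 9 lower genes of 16 to be read against 36.7% of all rows lower. Rrm1 and Rrm2, the subunits of ribonucleotide reductase, were 1.89-fold and 1.91-fold lower in KO (limma adjusted p = 0.000967 and 0.000523). Ccna2, cyclin A2 of S phase, fell to 10.9 ± 1.63 FPKM in KO, against 19.0 ± 1.24 FPKM in WT (limma adjusted p = 0.00134), and the proliferation marker Mki67 to 5.03 ± 0.41 FPKM in KO, against 9.51 ± 0.44 FPKM in WT (limma adjusted p = 0.000153). Mcm7, a subunit of the replicative helicase whose row also names Mir25 and Mir93, and Pola1, a DNA polymerase subunit, both named after their values were seen, were 1.55-fold and 1.39-fold higher in KO (limma adjusted p = 0.000861 and 0.00419). Mcm3, Mcm5, Mcm6, Tyms and Tk1 were not called. Tk1, thymidine kinase, was at 14.3, 0 and 11.1 FPKM in KO and at 38.2, 36.3 and 37.8 FPKM in WT (limma adjusted p = 0.0813). Every KO library lay below every WT library. Tk1 stayed uncalled in 14 of 15 alternative fits and passed as lower without KO replicate 2, its library at 0 (limma adjusted p = 0.000493). The part of these genes in the E cyclin values was not tested. The lower summed adipocyte markers in KO ran beside all members' values, and their part in them was likewise not tested.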

How the data were processed

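The deposited table gives 1 value per gene row and library for 3 SWELL1 KO and 3 WT libraries. TopHat, Cufflinks 2.02 and the GRCm38 build are named in the submitters' processing notes; no header or label names the unit, and the deposited values were taken as FPKM because Cufflinks gives FPKM and the values are never negative and mostly not whole. No source used here gives settings or an annotation release. FPKM hold no counts, so depth is an estimate and no counting intervals are given; 1 FPKM on 1 kb stood for 17.2 to 26.0 fragments.

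Rows averaging 0.5 FPKM or more over the 6 libraries were tested by limma 3.58.1 (R 4.3.3) on log2(FPKM + 0.5) (mean-variance trend, two-sided, Benjamini-Hochberg over 10515 rows, threshold 0.05), without further scaling. Fold changes on that scale understate changes of low genes; linear folds are ratios of mean FPKM. On simulated data the fit recovered 50.7% of 1.5-fold, 82.1% of 2-fold and 87.9% of 4-fold changes. Far fewer rows changed there than were called here, so neither these recovery rates nor its share of false calls carry over. From each list the up to 4 largest called changes without overlap or a 0 were named, and every member of lists of 3 or fewer. The members and lists were chosen with earlier results of these data known. Within groups, 24.4% to 30.2% of rows at 10 FPKM or more differed by over 10% between libraries, so no library looked like a copy of another. Gene positions are from GENCODE M21 and promoter sequences from RefSeq. Python 3.11.15, pandas 2.3.3 and matplotlib 3.10.9 were used.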

Additional observations from a re-analysis of the deposited data

How the results depend on the processing

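Each member was refitted under 15 alternatives: pseudocounts of 0.1 and 1, no filter on low values, a minimum mean of 1 FPKM, median-ratio scaling, quantile normalization, a robust fit, no mean-variance trend, the replicate number as a block, and each of the 6 libraries left out. Ccnd1, Ccnd2, Ccne1, Cdkn1a, Cdkn1b, Cdkn2a and Cdkn2b kept their direction and call in all 15, with Cdkn2a closest to the threshold (log2 fold change 0.18 to 0.39, limma adjusted p up to 0.0321). Of the 9 members, 8 were called in each alternative that kept all libraries, and 7 to 9 with a library left out. Over all rows, the fits with a library left out called 6325 to 6528 of 10515, and of the other G1 to S genes 31 to 35. With all libraries kept, the pseudocounts, both scalings, the robust fit and the fit without a trend called 6806 to 6861 of 10515 rows. A minimum mean of 1 FPKM gave 6519 of 9826 rows, and no filter 7595 of 16722. No member reversed. The log2 fold change of Ccne2, whose size rests on the pseudocount because of its zeros, ran from -3.57 to -1.53. Both scalings moved the share of higher calls over all rows, 43.7% as deposited, to 48.8% and 50.4%, and the median of all rows to -0.01 and 0.00. Deviations from the group mean gave an r from -0.093 to 0.012 between same-numbered KO and WT libraries. Between libraries of other numbers r ran from -0.057 to 0.052. With 3 libraries a group these values cannot settle whether the numbers pair libraries. With the replicate block 6534 rows, 8 members and 35 other G1 to S genes were called. In that fit Ccnd3 had a limma adjusted p of 0.0592, and E2f5 (0.0772) and Ambra1 (0.0761) lost their calls. Of the 37 called G1 to S genes around the members, 26 kept call and direction in all alternatives.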

Other observations

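Cyclins outside G1 were collected after the data had been seen, by symbol, leaving out the genes already described. Of 13 tested rows 8 were lower in KO and 5 were not called by limma. Of all tested rows 36.7% were lower in KO and 65.2% were called in either direction. Ccnb2, a mitotic cyclin, was at 3.89 ± 0.82 FPKM in KO and 9.94 ± 1.01 FPKM in WT (SD, n = 3 each; limma adjusted p = 0.000584). Ccno was at 0.165 ± 0.053 FPKM in KO and 2.10 ± 0.11 FPKM in WT, and Ccng2, a cyclin-like gene known to rise in arrested cells, had a log2 fold change of -0.62 (SE 0.05). Ccnk and Ccnt1, partners of kinases that act on RNA polymerase II, were at 13.3 ± 2.81 and 11.0 ± 2.74 FPKM in KO and at 25.1 ± 1.30 and 18.8 ± 2.35 FPKM in WT. The call of Ccni (limma adjusted p = 0.0466) was lost in 10 of 15 alternative fits, and the calls of the other 7 cyclins were kept in each of them. Of 10 tested CDK genes collected the same way, 1 rose, 2 fell and 7 were not called, against 65.2% of all tested rows called. Cdk19 of the Mediator complex was higher in KO, at 14.1 ± 1.17 FPKM in KO and 7.37 ± 0.28 FPKM in WT. Cdk1 and Cdk11b were lower. Cdk1, the mitotic kinase, was at 55.1 ± 9.13 FPKM in KO and 74.5 ± 3.24 FPKM in WT (limma adjusted p = 0.0172), a call lost in 5 of 15 alternative fits: under quantile normalization and without KO replicate 2 or 3 or WT replicate 1 or 3, with limma adjusted p up to 0.152 over the alternatives.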
